A study of Mus musculus with 26 samples.

Results

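The baseline of the series was the spleen of mice that were given saline and nothing else. It comprised 5 of the 26 libraries, taken by their treatment label and called CT1 to CT5 after a code that the labels do not define, and all 56392 entries of the gene table were read. The mice were female BALB/c, 8 weeks old, with no mutant allele, transgene or other agent named, and saline went into the peritoneum on days 1, 3 and 5. The labels give 20 mice per group and do not say whether a library is 1 mouse or a pool, so the spread between the 5 libraries may be partly technical. Transcripts were selected by their poly(A) tail and copied from random primers. The values are FPKM, the fragments on a gene per kilobase of its length and per unit of a library size set by the authors, so they compare genes per unit of length. Wherever 5 values follow each other they stand in the order CT1, CT2, CT3, CT4, CT5, and ± is the SD over the 5 libraries (n = 5). No treatment was compared and no p-value was computed: 5 libraries of a single group allow a description of levels and of their spread.

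The spleen filters blood and is a lymphoid organ at once. Its red pulp holds macrophages that take up old red cells and return their iron, and in mice the red pulp goes on making red cells and platelets in adult life. Its white pulp is built of B-cell follicles and T-cell zones around small arteries, with chemokines from stromal cells keeping the zones apart, and a marginal zone of special B cells and macrophages borders it. Whole-tissue RNA of a spleen therefore mixes genes of B cells, T cells, macrophages, erythroid cells and stroma.

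The libraries held 14540369 to 16698715 fragments that could be recovered from the FPKM, and a single fragment on 1 kilobase was worth 0.0569 to 0.0747 FPKM. A gene at 0 had no fragment, but a count of 0 still allows an expected number of up to 3 fragments. That is 0.171 to 0.224 FPKM on 1 kilobase. CT4 stood apart from the other 4 libraries. It had 20681 genes above 0, against 24679 to 25501, and the library size behind its FPKM was 0.802 of its fragments, against 1.00 to 1.06. In CT4 611 genes held 50% of the fragments, and in the others 1062 to 1207. Of the 14366 genes with a mean FPKM of at least 1, 2894 (20.1%) lay more than 1 log2 unit from the other 4 libraries in CT4, with 1121 (7.80%) higher and 1773 (12.3%) lower. This difference, called the CT4 difference below, is log2(FPKM + 1) in CT4 minus the mean of log2(FPKM + 1) in the other 4, and it understates changes of low genes. The same count was 575 for CT1 and 243 to 295 for CT2, CT3 and CT5, each set against 4 libraries that include CT4. When every library was rescaled to the same summed FPKM, the median CT4 difference over all genes moved from -0.01 to -0.39, and after median-of-ratios scaling it was -0.04, so a CT4 difference is read against that shift. Of the genes beyond 1 log2 unit, 38.7% were higher in CT4 in the deposited values and 15.3% after rescaling. Of the 150 genes given with values here, 114 had the same highest library and 118 the same lowest library under all 3 scalings. The part of library size and gene number in CT4's values was not tested.

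Most entries of the table had little or no signal in the spleen. Of the 56392 entries 26359 (46.7%) had no fragment in any of the 5 libraries and 15667 had a mean above 0 and below 1. A further 8942 had a mean of 1 to 10 FPKM, 5002 of 10 to 100, 383 of 100 to 1000, and 39 of 1000 or more. The 5002 genes of the middle class carried 50.2 ± 2.39% of all fragments, and the 39 top genes carried 12.3 ± 3.01% of fragments and 31.2 ± 5.29% of summed FPKM. At least 1 FPKM in every library was reached by 12104 genes, 10643 of them protein-coding, and by 12955 when CT4 was left out. The number of genes at or above 1 FPKM was alike in the libraries, at 14263, 14342, 14329, 14143 and 14299.

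Red-cell genes led the list of abundant transcripts, and mitochondrial, antibody, translation and antigen-presentation genes were among the 30 highest means. The first place of the mean belonged to Hbb-bs, an adult beta-globin gene, at 32468, 21892, 24887, 31361 and 20224 FPKM. Hba-a1, an alpha-globin gene, had 23661, 16729.9, 19936, 32823 and 15297 FPKM and was the top gene of CT4 alone. The third was mt-Co1, the mitochondrial gene for a cytochrome oxidase subunit, and the fourth was Igkc, the constant region of the kappa light chain. That order held only with CT4. Without it mt-Co1 had a mean of 4017 FPKM, below Igkc (6765), Hbb-bt (4490) and Rplp1 (4041). The mitochondrial mt-Rnr1, mt-Rnr2 and mt-Nd5, also among the 30, had means of 596, 597 and 552 FPKM without CT4. Eef1a1, the elongation factor that brings charged tRNA to the ribosome, had 2467, 2792, 2629, 5715 and 2881 FPKM with CT4 highest. Tmsb4x, an actin-binding peptide of leukocytes and platelets, had 3376, 1993, 1845, 1411 and 2146 FPKM, with CT1 highest and CT4 lowest. Actb, the cytoplasmic actin, stayed between 1105 and 1488 FPKM. Of the 30 genes with the highest mean, 16 were in the top 30 of every library, and each single library shared 22 to 24 of them. The 10 highest genes of each library held 8.19, 6.89, 7.17, 11.8 and 6.76% of its fragments, and leaving out CT4 lowered the mean from 8.15 ± 2.09% to 7.25 ± 0.649%.

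**Figure D1:**
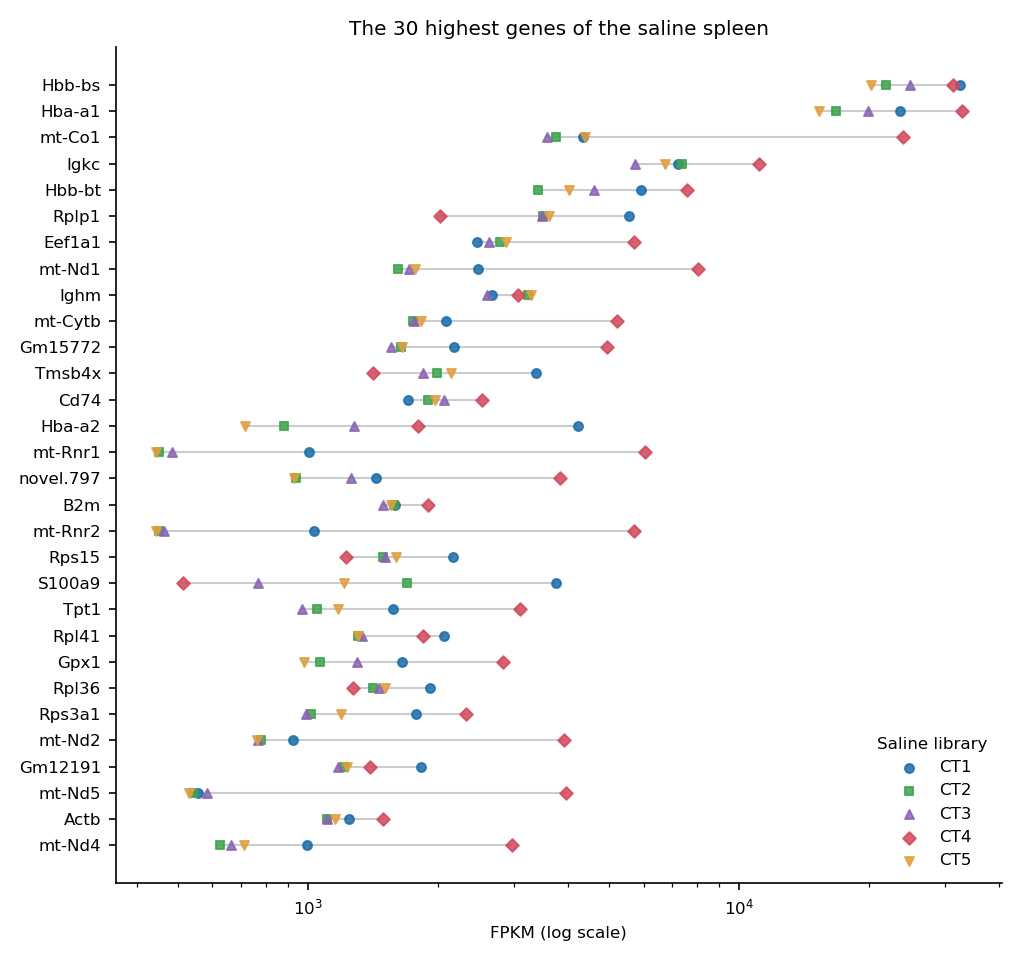
FPKM (log scale) of the 30 genes with the highest mean in the saline spleen, with 1 point per library and a line from the lowest to the highest. For mt-Co1 the CT4 point is at 23941 FPKM and the other 4 lie between 3574 and 4379, while Ighm, B2m and Actb have narrow ranges.

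Erythroid genes were the largest cell-type signal. The 4 adult globin genes, which encode the chains of haemoglobin, took 5.12, 3.53, 4.15, 4.59 and 3.28% of fragments (4.13 ± 0.756%) and 13.6 ± 1.90% of summed FPKM. Leaving out CT4 changed the share of fragments little, to 4.02 ± 0.822%. The sequence just upstream of these genes is shown because they hold so much of the library and because their regulation is the textbook case of an erythroid promoter. The 150 bases before each start, from RefSeq promoters of build GRCm38.p6, are printed 5′ to 3′ along the gene's strand, with CACCC, the CCAAT box and the TATA-like ATATAA on either strand in capitals.
Hbb-bs promoter, chr7:103827929-103828078, minus strand: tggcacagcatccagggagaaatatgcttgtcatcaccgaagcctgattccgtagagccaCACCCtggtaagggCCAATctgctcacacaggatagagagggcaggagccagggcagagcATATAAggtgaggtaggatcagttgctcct
Hbb-bt promoter, chr7:103813924-103814073, minus strand: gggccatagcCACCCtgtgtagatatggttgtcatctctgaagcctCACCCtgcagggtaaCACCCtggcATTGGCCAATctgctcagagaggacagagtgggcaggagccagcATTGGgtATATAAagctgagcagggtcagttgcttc
Hba-a1 promoter, chr11:32283522-32283671, plus strand: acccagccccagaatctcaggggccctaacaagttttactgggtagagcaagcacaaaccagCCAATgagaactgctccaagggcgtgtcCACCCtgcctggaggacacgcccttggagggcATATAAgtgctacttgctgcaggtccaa
Hba-a2 promoter, chr11:32296342-32296491, plus strand: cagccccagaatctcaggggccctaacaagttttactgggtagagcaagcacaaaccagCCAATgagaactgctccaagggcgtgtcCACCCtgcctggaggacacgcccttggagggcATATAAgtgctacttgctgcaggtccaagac
All 4 windows held these 3 motifs together, which 139 (0.423%) of 32851 promoter windows of this length do. By single motif the shares of all windows were 37.4% for CACCC, 24.5% for CCAAT and 5.35% for ATATAA. In Hbb-bs the CACCC lies 90 to 86 bases before the start, the CCAAT 76 to 72 and the ATATAA 30 to 25. Hbb-bt has 3 copies of CACCC and 3 of CCAAT, of which a pair lies side by side on opposite strands, 80 to 76 and 75 to 71 bases before the start. GATAA, a form of the GATA-factor site that 13.3% of windows hold, was in none of the 4 windows, which says only that these letters are not there. These matches are letters in a window and are not evidence of a bound factor.

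The globin pairs differ in how far their reads can be told apart. The Hba-a1 and Hba-a2 windows are identical over 147 aligned bases and their longest transcripts over 537 of 538 bases, whereas the Hbb-bs and Hbb-bt windows match at 109 of 148 bases and the transcripts at 580 of 626. Hba-a2 had 4233, 880.2, 1280.4, 1802 and 715 FPKM, so Hba-a1 over Hba-a2 was 5.59, 19.0, 15.6, 18.2 and 21.4. CT1 was the library with the low ratio. The split between these alpha genes is uncertain because how the authors counted shared reads is not stated in any source used here. Hbb-bt, the minor adult beta gene, had 5922, 3416, 4597, 7563 and 4026 FPKM. Beta over alpha globin, summed over each pair, was 1.38, 1.44, 1.39, 1.12 and 1.51, and CT4 was the lowest.

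All 22 matched genes of the erythroid list had a mean above 10 FPKM, and their sum was 69115, 45587, 53927, 81246 and 42742 FPKM. Beyond the globins the list ran from haem and iron supply to membrane skeleton and transcription factors. Alas2, the erythroid enzyme that starts haem synthesis, had 274, 428, 558, 1730.0 and 378 FPKM. Slc4a1, the anion exchanger band 3, had 398, 476, 595, 750.1 and 419 FPKM. CT4 was the highest library for both, though for Slc4a1 CT3 was highest after rescaling. Klf1, the erythroid factor that binds CACCC, had 135, 122, 147, 164 and 111 FPKM, and Gata1 48.0, 35.3, 38.7, 60.5 and 36.2 FPKM, and both varied less than Alas2 and Slc4a1. Epor, the erythropoietin receptor, went the other way, at 59.1, 44.3, 47.5, 26.2 and 41.8 FPKM with CT4 lowest. In CT4 11 of the 22 genes were beyond 1 log2 unit and higher, and none lower, beside 7.80% and 12.3% of all genes. CT4 was highest for 19 of the 22 genes, beside 38.8% of all genes. The median CT4 difference of the list was 0.97, and 0.55 after rescaling, when its sum was the second highest and no longer the highest. CT1 had the highest Hbb-bs and Hba-a2 and was second in the list's sum. In whole tissue, more cells of a type and more RNA per cell cannot be told apart, here or in any list below.

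An entry with no gene name had its highest value in CT4 too. It lies on chromosome 7, 127901472 to 127902930 on a build that the table does not name. It is 636 bases long, and the table describes it by the protein domain of the alpha-haemoglobin stabilising protein, a chaperone of free alpha chains. It had 1436, 936, 1259, 3847 and 927 FPKM, the 16th highest mean in the table. The symbol Ahsp, the gene of that name in the erythroid list, matched no row and has no value here.

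Mitochondrial transcripts separated CT4 from the rest. The 37 genes of the mitochondrial chromosome held 1.81, 1.44, 1.44, 6.62 and 1.56% of fragments. CT4 was the highest by far and the other 4 lay close together. The mean was 2.57 ± 2.27%, and 1.56 ± 0.175% (n = 4) without CT4. Their 13 protein-coding genes, which encode subunits of respiratory complexes, held 1.54, 1.31, 1.31, 5.42 and 1.44%. mt-Co1 had 4350.3, 3766, 3574, 23941 and 4379 FPKM, and mt-Nd5, a subunit of complex I, 554, 542, 584, 3974 and 529 FPKM. Cytochrome b, mt-Cytb, had 2087, 1754, 1765, 5194 and 1829 FPKM. The ribosomal RNAs mt-Rnr1 and mt-Rnr2 of the organelle had 1005, 451, 484, 6054 and 444 and 1029, 450.0, 463, 5716 and 445 FPKM, and here CT1 was second. Of the 27 mitochondrial genes with a mean of at least 1, 23 were beyond 1 log2 unit higher in CT4 and 1 lower, beside 7.80% and 12.3% of all genes.

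Genes for the ribosome held a larger share of fragments than either the globin or the mitochondrial genes. Of summed FPKM they held 10.6 ± 0.850%, below the 13.6 ± 1.90% of the globin genes. The 84 cytosolic ribosomal protein genes held 7.63, 5.81, 5.77, 6.93 and 6.25% of fragments, so CT1 was the highest library and CT4 the second. Members did not move together. Rplp1, a stalk protein of the large subunit, had 5555, 3504, 3492, 2023 and 3613 FPKM, with CT1 highest and CT4 lowest. Rps15 had 2164, 1494, 1509, 1223 and 1602 FPKM with the same highest and lowest libraries. Rps12, in contrast, had 356, 226, 276, 1623 and 247 FPKM and was among the 10 named protein-coding genes furthest above the other libraries in CT4. Tpt1, whose protein binds tubulin and is linked to translation, had 1574, 1047, 968, 3097 and 1176 FPKM, with CT4 highest as well. Ribosomal protein genes have many processed copies in the genome, and 13739 pseudogene entries of the table held 1.81 ± 0.144% of fragments and 6.98 ± 0.521% of summed FPKM. Gm15772, a processed pseudogene entry of 438 bases on chromosome 5, had 2178, 1647, 1559.8, 4927 and 1647 FPKM, the 11th highest mean. Gm12191 had 1826, 1209, 1172, 1393 and 1229.8 FPKM. Whether their fragments belong to the parent genes cannot be told from the table.

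By biotype, protein-coding genes held 94.7, 94.7, 94.9, 93.8 and 94.7% of fragments (94.6 ± 0.453%) but 83.3 ± 1.36% of summed FPKM, because short entries weigh more per length. Of the 21885 protein-coding genes 11534 (52.7%) had a mean of at least 1 FPKM and 4808 had no fragment. Processed pseudogenes held 1.34 ± 0.157% of fragments, constant-region genes of antibodies 1.13 ± 0.113%, and variable-region genes 0.277 ± 0.0807%. Long non-coding RNAs held 1.03 ± 0.0620%, from 9950 entries of which 715 (7.19%) had a mean of at least 1. The leading ones were Malat1, a nuclear RNA, at 142, 217, 245, 325 and 209 FPKM, and Mir142hg, the host transcript of a blood-cell microRNA, at 359, 211, 271, 34.4 and 129 FPKM. CT4 was the lowest library for Mir142hg and the highest for Malat1, and CT1 the reverse (CT3 was highest for Malat1 after rescaling). The 976 entries that the table numbers without a symbol or biotype held 0.456 ± 0.0441%, and entries to be experimentally checked (TEC) 0.129 ± 0.0214%.

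Ribosomal RNA is largely removed by poly(A) selection, and its genes held 0.178 ± 0.0715% of fragments. Nearly all of it was Rn18s, the 18S RNA, at 910.0, 1169, 975, 399 and 1230.2 FPKM with CT4 lowest. The mitochondrial ribosomal RNAs, with 0.259, 0.121, 0.126, 1.19 and 0.118%, had CT4 highest. So the 2 kinds of ribosomal RNA ran in opposite directions in that library. Transcribed processed pseudogenes held 0.184 ± 0.0109%. Polymorphic pseudogenes, genes that are broken in the reference strain and may work in another, held 0.139, 0.139, 0.141, 0.0959 and 0.143%, with CT4 lowest. Most of that was H2-Ea, the alpha chain of the MHC class II molecule I-E, with 997, 922, 962, 897 and 990.4 FPKM. It is defective in C57BL/6, the strain of the reference genome, and intact in BALB/c. The mean of H2-Ea, 954 FPKM, was below those of Cd74 (2035 FPKM) and B2m (1625 FPKM).

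**Figure D2:**
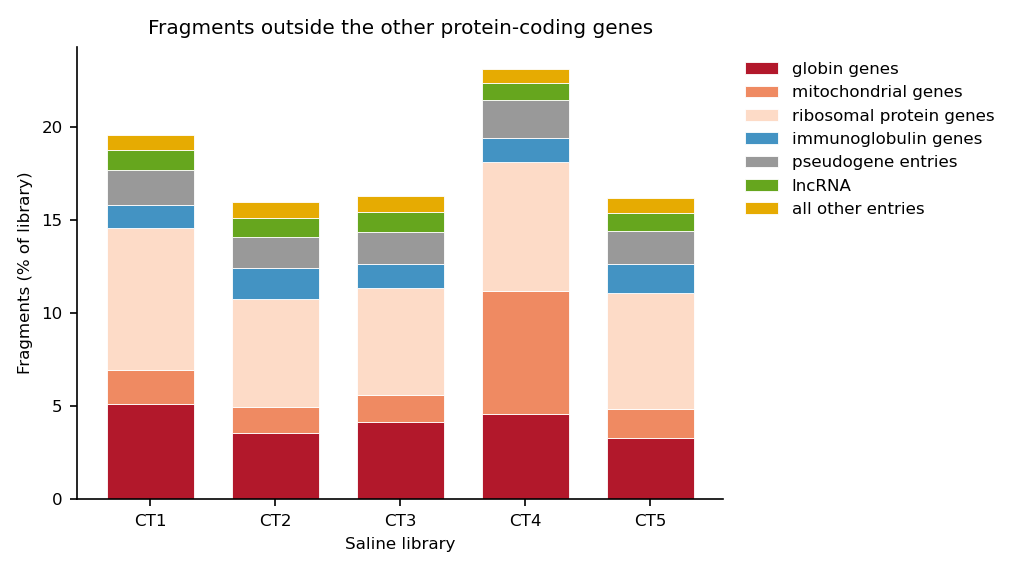
Share of fragments (%) in each saline library for 7 classes that do not overlap, stacked from 0, with all other protein-coding genes left off. Globin genes take 3.28 to 5.12% and ribosomal protein genes 5.77 to 7.63%, and the mitochondrial band is 6.62% in CT4 against 1.44 to 1.81% in the other 4.

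B cells dominated the lymphoid genes. All 16 B-cell genes had a mean above 1 and 15 above 10 FPKM, and their sum was 4224, 4700.4, 4416, 4342 and 4861 FPKM, one of the steadiest of the lists. Ighm, the constant region of IgM, made most of it, at 2666, 3240.4, 2606, 3073 and 3289.5 FPKM. Ighd, the constant region of IgD, which mature naive B cells carry beside IgM, had 252, 259.7, 307, 383 and 226 FPKM, and the ratio of Ighm to Ighd was 10.8 ± 2.74. The signalling chains of the B-cell receptor, Cd79a and Cd79b, differed in CT4. Cd79a had 335, 300.02, 398, 108 and 358 FPKM and Cd79b 315, 235, 312, 242 and 278 FPKM. Ms4a1, which encodes CD20, had 55.1, 62.2, 69.4, 63.2 and 70.8 FPKM. CT4 was the lowest for Cd79a by a wide gap and was in the middle for Ms4a1, where it was lowest after rescaling. Pax5 and Ebf1, the transcription factors of B-cell identity, had 42.0 ± 6.54 and 7.14 ± 2.55 FPKM. In all, 3 of the 16 genes were beyond 1 log2 unit lower in CT4 and 0 higher, beside 12.3% and 7.80% of all genes.

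Antibody genes took 1.42 ± 0.180% of fragments. Igkc had 7215, 7371, 5739, 11145 and 6736 FPKM with CT4 highest. Iglc2, a lambda constant region, had 885, 629, 561, 406 and 774 FPKM with CT4 lowest. The ratio of Igkc to the sum of Iglc1 to Iglc3 was 4.50, 5.35, 4.61, 13.1 and 4.42, with a mean of 4.72 ± 0.427 (n = 4) without CT4. A ratio within a library does not depend on its scaling. Kappa light chains outnumber lambda in mice, and these values share that order. Class-switched constant regions were far below IgM. Igha, for IgA, had 117, 155, 66.5, 41.0 and 118 FPKM, and Ighg1, for IgG1, 41.4, 23.5, 7.24, 8.41 and 29.3 FPKM. Ighg3, Ighg2b and Ighg2c had means of 37.5 ± 12.04, 29.1 ± 13.8 and 38.3 ± 17.6 FPKM. Ighe, for IgE, stayed under 1 FPKM in every library, at 0.786, 0.463, 0.646, 0.377 and 0.662. Antibody segments share sequence, and BALB/c differs from the reference in its heavy-chain alleles, so the split between IgG subclasses is uncertain.

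The plasma-cell list summed to 634, 655, 491, 732 and 678 FPKM, and most of that was Jchain, the peptide that joins IgM and IgA into polymers, at 502, 509, 361, 619 and 529 FPKM. Xbp1 and Irf4, factors of secretory and plasma cells that other cells use too, had 39.4 ± 5.56 and 15.7 ± 2.05 FPKM. Sdc1, which encodes the surface marker CD138, had 4.88 ± 0.971 FPKM, and Prdm1, the factor that fixes the plasma-cell fate, 3.29 ± 0.608 FPKM. Mzb1, a chaperone of antibody secretion, had 10.7, 17.4, 17.1, 1.78 and 18.5 FPKM and was lowest in CT4, where Jchain was highest in the deposited values (CT5 was highest for it after rescaling). Germinal-centre genes were present at low levels: all 10 had a mean of at least 1 and a single one, Neil1, of at least 10. Bcl6, the master factor of the germinal centre, had 7.08, 7.25, 7.38, 5.77 and 7.21 FPKM. CT5 was the highest library for 7 of these 10 genes and CT4 the lowest for 7, beside 12.7% and 40.4% of all genes.

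Marginal-zone and B1 genes, which mark the B cells at the border of the white pulp and of body cavities, all had a mean of at least 1 and summed to 225 ± 27.1 FPKM, or 236 ± 10.8 without CT4. Plac8 led with 83.7 ± 6.82 FPKM. Cd1d1, which presents lipids to NKT cells, had 13.4, 13.8, 13.7, 3.89 and 16.9 FPKM. S1pr3, a receptor that holds marginal-zone cells in place, had 15.5 ± 2.49 FPKM. Of the 11 genes 4 were beyond 1 log2 unit lower in CT4 and 0 higher, beside 12.3% and 7.80% of all genes.

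Antigen-presentation genes were abundant and evenly set in the libraries other than CT4. The 11 class II genes summed to 3871, 3817, 4097, 4086 and 4033 FPKM, and the 10 class I genes with a mean of at least 1 and H2-Q7 to 2592, 2456, 2361, 2407 and 2495. Cd74, the invariant chain, had 1704, 1901, 2064, 2534 and 1971 FPKM. H2-Ab1, the beta chain of I-A, had 236, 198, 214, 222 and 215 FPKM, and H2-Eb1, the beta chain of I-E, 454, 345, 389.9, 150.4 and 391 FPKM. Ciita, the switch factor of class II genes, had 23.8 ± 5.03 FPKM. B2m, the light chain of class I, had 1593, 1579, 1494.9, 1898 and 1558 FPKM and H2-D1 417, 415, 406, 213 and 441 FPKM. CT4 was the lowest library for 9 of the 11 class II genes and for 8 of the 10 class I genes with a mean of at least 1. It was the lowest for 40.4% of all genes. Its sums were close to those of the others, since in the deposited values it was highest for Cd74 and B2m, which after rescaling were highest in CT3 and CT2. Without CT4 the median CV, the SD over the mean, was 7.28% for class II and 9.27% for class I, below the 12.8% of all genes. H2 genes are polymorphic and similar to each other, and reads of BALB/c were set against another haplotype, so single H2 levels are uncertain.

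T-cell genes lay well below the B-cell genes in sum. All 18 had a mean of at least 1 FPKM and summed to 643, 611, 569.9, 423 and 547 FPKM. Trbc2, a beta constant region of the T-cell receptor, had 184, 154, 138, 116 and 131 FPKM. Cd3e, a signalling chain of the receptor, had 9.46, 11.4, 11.0, 5.12 and 11.8 FPKM, Cd3d 30.8, 24.8, 23.4, 10.9 and 24.2 and Cd3g 19.2, 17.0, 16.7, 19.6 and 16.7. In CT4 Cd3e and Cd3d were the lowest. Cd3g was highest there in the deposited values and lowest after rescaling, so its position depends on the scaling. Cd4 had 19.9, 27.0, 25.7, 20.3 and 25.7 FPKM and Cd8a 18.0, 18.2, 17.8, 15.2 and 17.0 FPKM, and the ratio of Cd4 to Cd8a was 1.37 ± 0.163. Cd4 is also made by some dendritic cells, so the ratio is not one of T cells alone. Leaving out CT4 moved the summed T-cell level to 593 ± 42.6 FPKM, and 5 of 18 genes were beyond 1 log2 unit lower in CT4 and 0 higher, beside 12.3% and 7.80% of all genes.

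Smaller T and NK subsets were detected with wider spread. Foxp3, the factor of regulatory T cells, had 1.32, 2.47, 2.39, 0.718 and 2.56 FPKM, and 7 of the 8 matched genes of that list had a mean of at least 1. The list summed to 32.3, 31.4, 30.9, 15.3 and 36.5 FPKM, with CT4 lowest and the other 4 close together. Trdc, the constant region of the delta chain, had 2.08 ± 0.531 FPKM, and the 5 matched gamma-delta genes summed to 22.9, 14.7, 13.3, 14.3 and 14.5 FPKM, where CT1 was highest because of Trgc1 and Trgc2. All 14 NK and cytotoxic genes had a mean of at least 1. Ccl5, a chemokine of cytotoxic cells, led with 88.0, 76.5, 78.4, 19.0 and 71.7 FPKM, followed by Gzma, a granzyme, with 43.8, 44.3, 41.8, 31.3 and 33.4. Ncr1, the NK receptor NKp46, had 10.3, 10.9, 11.0, 11.9 and 10.3 FPKM and varied little. Klrd1, which encodes CD94, had 17.4, 14.6, 13.4, 4.90 and 12.6 FPKM. CT4 was the lowest for 12 of the 14 genes, beside 40.4% of all genes. In CT4 3 of the 14 were beyond 1 log2 unit lower and 0 higher, beside 12.3% and 7.80% of all genes. For Ncr1 CT4 was highest in the deposited values and lowest after rescaling.

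Macrophages of the red pulp gave the strongest myeloid signal after the neutrophil genes. All 15 genes of the list had a mean above 10 FPKM, and they summed to 1371, 1670.3, 1563, 1009 and 1643 FPKM. The complement genes C1qa, C1qb and C1qc, made mainly by macrophages, led with means of 311 ± 119, 180.4 ± 44.0 and 124 ± 41.4 FPKM. Hmox1, the enzyme that opens the haem ring, had 200.6, 348, 347, 181 and 334 FPKM, low in CT1 and CT4. Slc40a1, the iron exporter ferroportin, had 60.4, 76.2, 70.1, 57.2 and 81.9 FPKM. Spic, the transcription factor of red-pulp macrophages, had 43.3, 42.5, 39.5, 41.2 and 41.2 FPKM, with a CV of 3.54%. Adgre1, which encodes F4/80, had 17.7, 34.7, 28.9, 29.6 and 27.6 FPKM with CT1 lowest. Cd163, the scavenger receptor of haemoglobin, had 16.5 ± 2.50 FPKM. C1qa had 102 FPKM in CT4 and up to 391 FPKM in the others, while Vcam1, Spic and Cd163 in CT4 were within the range of the other 4. Of the 15 genes 2 were beyond 1 log2 unit lower in CT4, a share near the 12.3% of all genes, and 0 higher.

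The macrophages of the marginal zone were marked by Marco, a scavenger receptor, with 61.9, 53.8, 50.04, 48.4 and 59.1 FPKM, and by Siglec1, the sialoadhesin of metallophils, with 8.98, 16.9, 16.9, 11.7 and 17.5 FPKM. Cd209b, which encodes SIGN-R1, had 10.5 ± 1.99 FPKM, and Cd209d had 1.90, 2.13, 2.11, 0 and 2.07 FPKM with no fragment in CT4. The list summed to 152 ± 18.9 FPKM, and to 159.9 ± 6.03 without CT4. Monocyte genes summed to 229 ± 23.9 FPKM. Csf1r, the receptor of the macrophage growth factor, had 66.9, 106, 95.4, 112 and 105.1 FPKM, and Ly6c2 and Ccr2 of inflammatory monocytes had 9.54 ± 2.13 and 5.22 ± 1.57 FPKM. Dendritic-cell genes were low. Itgax, which encodes CD11c, had 15.7, 17.0, 17.9, 12.6 and 17.0 FPKM, Xcr1 of the cross-presenting type 3.37 ± 1.06 and Zbtb46, a factor of conventional dendritic cells, 4.89 ± 0.183. Siglech, of plasmacytoid dendritic cells, had 6.92, 8.81, 8.41, 8.43 and 7.00 FPKM. The sum of the plasmacytoid list was 144, 115, 105.1, 47.8 and 112 FPKM, but Bst2, which many cells make, supplied most of it on average.

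Of the 22 cell-type lists, the eosinophil and neutrophil lists had the highest median CV, with and without CT4. All 18 neutrophil genes had a mean of at least 1 FPKM, and their sum was 8639.8, 4012, 1897, 1623 and 2873 FPKM, so the highest was 5.32 times the lowest among 5 saline libraries. S100a9, a calcium-binding protein of neutrophil cytoplasm, had 3756, 1695, 766, 512 and 1209 FPKM. Camp, the precursor of the peptide cathelicidin, had 660.3, 211, 155, 74.8 and 228 FPKM. Ltf, lactoferrin of secondary granules, had 142, 83.9, 43.9, 42.2 and 73.6 FPKM. Elane, the elastase of primary granules that is made in young neutrophils of the marrow, had 146, 98.0, 33.0, 96.1 and 59.6 FPKM, and Mpo, myeloperoxidase, 79.2, 59.1, 18.4, 30.2 and 32.6 FPKM. Ly6g, the surface marker, had 36.7, 13.7, 6.95, 9.99 and 15.2 FPKM. CT1 was the highest library for 15 of the 18 genes and CT4 the lowest for 11, beside 26.3% and 40.4% of all genes. Without CT4 the spread stayed: the median CV of the list was 60.5% with all 5 libraries and 58.0% without CT4. In CT4 7 of 18 genes were beyond 1 log2 unit lower and 0 higher, beside 12.3% and 7.80% of all genes.

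Eosinophil genes varied as widely but in another order. Prg2, the major basic protein of the granule, had 14.9, 151, 81.1, 1.16 and 202 FPKM. Epx, eosinophil peroxidase, had 0.933, 9.43, 4.82, 0.0546 and 11.98 FPKM, and Ear1, a granule ribonuclease, 1.19, 21.5, 7.48, 0.409 and 22.99 FPKM. For all of these 3 genes the order from high to low was CT5, CT2, CT3, CT1 and CT4. Ear1, Ear2 and Ear6 are close relatives, so their split is uncertain. Ccr3, the eotaxin receptor, had 18.8, 28.2, 27.4, 21.5 and 31.7 FPKM and Il5ra, a chain of the interleukin-5 receptor, 2.47, 3.17, 3.85, 4.07 and 2.71, and these receptors did not share the spread of the granule genes. Siglecf stayed under 1 FPKM. The list's median CV was 73.6%, and 59.9% without CT4. Mast-cell and basophil genes were near the limit: 8 of 11 had a mean of at least 1 FPKM, and Mcpt8, a basophil protease, had 6.05, 3.98, 1.43, 2.24 and 3.28 FPKM.

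Platelet and progenitor genes completed the blood-forming part. Ppbp, a platelet chemokine, had 325, 266, 212, 553 and 243 FPKM and Pf4, platelet factor 4, 268, 196, 151, 125 and 186 FPKM. These platelet chemokines had opposite positions in CT4, which was highest for Ppbp and lowest for Pf4 under all 3 scalings. Itga2b, the integrin chain CD41, had 25.2 ± 4.89 FPKM, and Vwf, von Willebrand factor, which endothelium makes too, 7.39 ± 4.24. Gp1bb was at or below 0.0879 FPKM and at 0 in 3 libraries. The list summed to 767 ± 187 FPKM, and 5 of its 13 genes with a mean of at least 1 were beyond 1 log2 unit higher in CT4, beside 7.80% of all genes. Its median CT4 difference was 0.65, and 0.26 after rescaling, when its sum in CT4 was the second highest. Among progenitor genes Gfi1b, an erythroid and megakaryocyte repressor, led with 28.4, 26.1, 29.1, 62.1 and 22.7 FPKM, and without it the rest were single-digit: Myb had 6.39 ± 0.954, Kit 5.39 ± 0.893 and Cd34 2.30 ± 0.486 FPKM. Mecom and Hoxa9, of stem cells, had means under 1.

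Stroma was seen through its chemokines. Ccl21a, which draws T cells and dendritic cells, had 381, 348, 361, 102 and 469 FPKM, and Cxcl13, which draws B cells into follicles, 132, 114, 123, 168 and 148 FPKM. Ccl19, the partner of Ccl21a at the receptor CCR7, had 52.6, 37.5, 39.6, 29.1 and 48.8 FPKM, and Cxcl12 72.6 ± 12.9. Ccl21a was lowest in CT4 and Cxcl13 highest there, but after rescaling CT5 was the highest for Cxcl13. Ccl21a has near-identical copies, so its level is uncertain. Tlx1, the factor that the embryonic spleen needs to form, had 16.7, 18.8, 17.7, 4.12 and 22.3 FPKM, and Nkx2-5, of the same programme, 5.04, 4.34, 5.66, 0 and 6.94, with no fragment in CT4. Tcf21 had 19.9 ± 7.94 FPKM. Collagen genes were steadier, with Col1a2 at 19.6 ± 3.26 and Col3a1 at 16.2 ± 1.25 FPKM. Of the 16 genes with a mean of at least 1, CT5 was the highest library for 11, beside 12.7% of all genes. CT4 was the lowest for 9, beside 40.4% of all genes. In CT4 6 of the 16 were beyond 1 log2 unit lower and 1 higher, beside 12.3% and 7.80% of all genes.

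Smooth-muscle genes of the capsule and vessels had the least spread among the 22 cell-type sums, at 134, 153, 137, 146 and 143 FPKM. Acta2, the smooth-muscle actin, had 26.8, 34.5, 31.9, 31.2 and 32.9 FPKM and Myl9, a myosin light chain, 65.8 ± 3.97. In endothelium Plvap, of fenestrated vessels, had 70.0, 83.6, 81.6, 46.2 and 90.3 FPKM, Pecam1, which encodes CD31, 23.9, 26.7, 26.7, 31.7 and 25.1, and Stab2, a scavenger receptor of sinus lining, 16.2, 24.6, 25.4, 21.8 and 23.04. Cldn5, a tight-junction protein, had 41.9, 27.7, 36.2, 8.70 and 31.7 FPKM with CT4 lowest. Lyve1 and Emcn stayed under 1 FPKM in every library.

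Across the 22 cell-type lists, 253 of 267 matched members had a mean of at least 1 FPKM, and in 14 lists every matched member did. By summed FPKM the order of the leading lists was erythroid, B cell, neutrophil, red-pulp macrophage, megakaryocyte, stroma, plasma cell and T cell. Erythroid sums lay above all others in every library, and from the B-cell list down each neighbour in that order overlapped the next: neutrophil sums ranged from 1623 to 8640 FPKM and red-pulp macrophage sums from 1009 to 1670. The lists differ in length and in the level of their leading genes, so the order is not an order of cell numbers. CT4 was the lowest library for 14 lists and the highest for 4, which became 18 and 1 after rescaling to equal sums. CT1 and CT5 were each highest for 7.

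**Figure D3:**
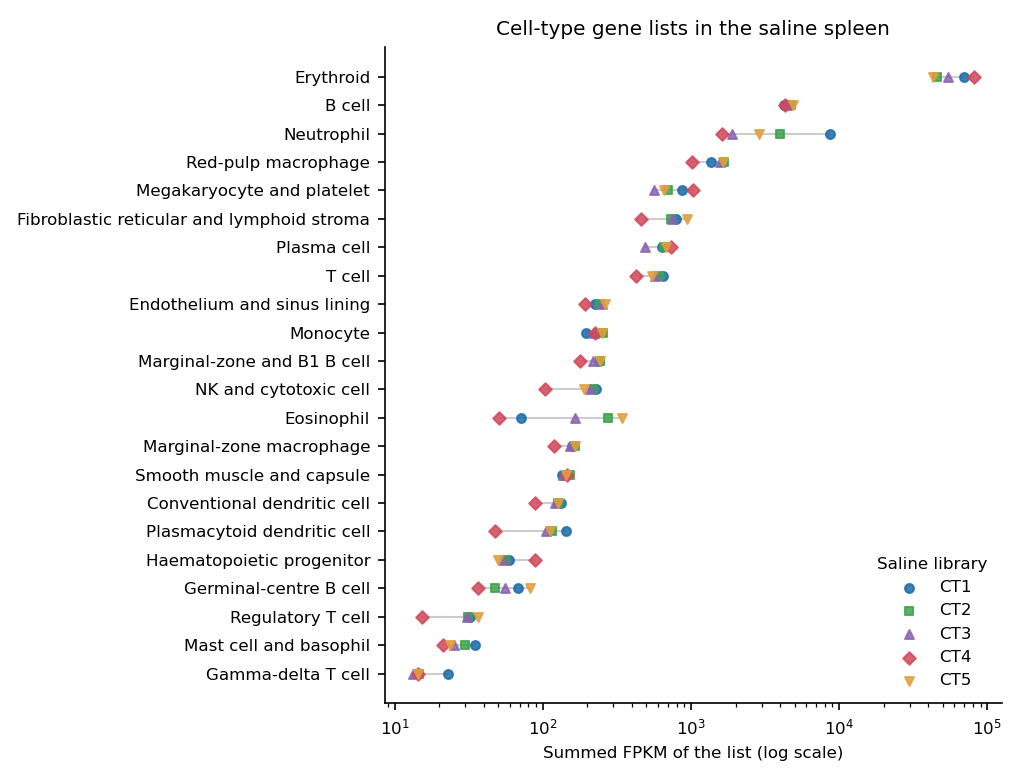
Summed FPKM (log scale) of 22 cell-type gene lists in the saline spleen, sorted by mean, with 1 point per library and a line from the lowest to the highest. B-cell and smooth-muscle sums are tight, neutrophil sums run from 1623 in CT4 to 8640 in CT1 and eosinophil sums from 50.4 in CT4 to 344 in CT5.

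Iron genes, which link the red-cell and macrophage sides of the organ, summed to 1918, 1978, 2040.1, 2618 and 2029 FPKM, with CT4 highest in the deposited values and not after rescaling. The ferritin chains store iron. Ftl1, the light chain, had 882, 807, 835, 674 and 863 FPKM and Fth1, the heavy chain, 411, 398, 418, 1094 and 408 FPKM, so CT4 was lowest for the light chain and highest for the heavy chain, under all 3 scalings. Tfrc, the transferrin receptor of dividing and erythroid cells, had 131, 85.2, 93.0, 170.1 and 85.7 FPKM. Hamp, the liver hormone hepcidin, was at 0 in 3 libraries and at most 0.298 FPKM.

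Division genes were active in all libraries: all 20 had a mean above 10 FPKM. Mki67, the nuclear antigen of cycling cells, had 132, 126, 137, 689.9 and 123 FPKM, and Top2a, the topoisomerase of chromosome separation, 42.1, 43.4, 44.4, 116 and 44.3 FPKM. Pcna, the sliding clamp of replication, had 176, 135, 147, 216 and 145 FPKM. CT4 was highest for 17 of the 20, beside 38.8% of all genes. Of the 20, 4 were beyond 1 log2 unit higher in CT4 and 0 lower, beside 7.80% and 12.3% of all genes. The other 4 libraries were tightly grouped, with a median CV of 9.02% without CT4 against 22.7% with it. Cenpf, a centromere protein with a long transcript, had 7.76, 8.14, 8.43, 54.5 and 7.06 FPKM. The median CT4 difference of the list was 0.59, and 0.18 after rescaling.

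Immediate-early genes, which switch on within minutes of a signal or of tissue handling, lay far lower in CT4 than in the other 4 libraries. Junb had 60.1, 87.0, 72.4, 7.69 and 99.4 FPKM, Fos 16.4, 28.9, 16.9, 3.43 and 49.5 FPKM, Dusp1 45.8, 62.7, 50.1, 16.9 and 74.4 FPKM and Zfp36 66.2, 88.5, 79.8, 12.7 and 87.2 FPKM. All 4 were lowest in CT4. Of the 19 genes with a mean of at least 1, CT5 was the highest library for 15 and CT4 the lowest for 17. CT5 was the highest for 12.7% of all genes and CT4 the lowest for 40.4%. In CT4 15 of the 19 were beyond 1 log2 unit lower and 0 higher, beside 12.3% and 7.80% of all genes. Klf6 was level in the deposited values, at 22.7, 24.9, 21.0, 23.01 and 26.1 FPKM. The median CT4 difference was -1.52, and -2.15 after rescaling. Genes that respond to glucocorticoid hormone were low in CT4 as well, but fewer of them by a wide gap. CT4 was the lowest library for 11 of the 12 with a mean of at least 1, beside 40.4% of all genes. Of these 12, 3 were beyond 1 log2 unit lower and 0 higher, beside 12.3% and 7.80% of all genes. Ddit4 had 186, 178, 192, 13.5 and 155 FPKM and Tsc22d3, which encodes GILZ, 81.1, 70.4, 71.8, 14.7 and 73.1 FPKM. Their list summed to 458, 442, 435, 131 and 436 FPKM, and without CT4 the mean was 443 ± 10.4 FPKM (n = 4). Fkbp5 had 11.6, 6.46, 6.53, 7.12 and 8.57 FPKM with CT4 in the middle, or lowest after rescaling. Dusp1 belongs to both lists.

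Heat-shock genes singled out CT5 by 2 members. Hspa1b and Hspa1a, the inducible Hsp70 genes, had 2.31, 5.43, 1.56, 0.186 and 97.9 and 1.03, 1.65, 0.460, 0 and 39.4 FPKM. Hspa8, the constant Hsp70, had 205, 189.6, 154, 334 and 211 FPKM, Hsp90ab1 354, 439, 379, 588 and 422 FPKM, and Dnajb1, an Hsp40 partner, 33.6, 40.9, 33.3, 33.5 and 40.0 FPKM, and in these CT5 was not set apart. Hspb1, a small heat-shock protein, had 13.7, 18.7, 11.5, 4.49 and 21.5 FPKM. The windows upstream of the inducible pair are shown because they hold the letters of a heat-shock element, in capitals as GAANNTTC.
Hspa1a promoter, chr17:34972157-34972306, minus strand: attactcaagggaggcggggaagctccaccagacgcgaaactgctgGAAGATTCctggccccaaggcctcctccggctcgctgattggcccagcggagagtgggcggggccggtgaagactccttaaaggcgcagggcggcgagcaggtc
Hspa1b promoter, chr17:34959239-34959388, minus strand: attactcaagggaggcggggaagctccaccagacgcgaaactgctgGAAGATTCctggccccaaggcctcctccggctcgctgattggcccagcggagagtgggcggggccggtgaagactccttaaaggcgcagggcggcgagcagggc
The windows match at 149 of 150 bases and both hold GAANNTTC 104 to 97 bases before the start, a form that 3.95% of 32851 windows hold. The other form, TTCNNGAA, is in 4.21% of windows and in neither of these. Either form is in 7.73%, and the match is a description and not a bound site. The transcripts match at 91.5% of aligned bases, so reads can be shared between the pair. CT5 was also high for Ccn1, an early-response matrix protein, at 5.71, 7.57, 1.52, 1.89 and 93.3 FPKM.

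Interferon genes gave a baseline tone, with all 16 at a mean of at least 1 FPKM. Isg15, a ubiquitin-like protein, had 156, 104, 120.3, 139.8 and 76.4 FPKM, Rsad2, viperin, 59.3, 55.5, 71.1, 195 and 39.7 FPKM and Irf7 33.4, 27.6, 30.4, 26.8 and 22.7 FPKM. CT1 was highest for 7 of the 16 genes, beside 26.3% of all genes, and CT5 was low for the leading ones. CT4 was high for Rsad2, Ifit1 and Ifit2 and lowest for 7 genes, beside 40.4% of all genes. In CT4 2 of the 16 genes were beyond 1 log2 unit higher and 1 lower, near the 7.80% and 12.3% of all genes. The sum was 367, 293, 328, 457 and 229.8 FPKM.

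Genes in common use as references varied somewhat less than all genes, and a few stood out in CT4. Their median CV was 19.4% against 24.4% for all genes, and 10.4% against 12.8% without CT4. In CT4 2 of the 15 were beyond 1 log2 unit higher and 1 lower, beside 7.80% and 12.3% of all genes. Eef1a1 made 5715 FPKM of the sum in CT4 and 2467 to 2881 FPKM in the others. The list of 15 summed to 6761, 6728, 6519, 11610.3 and 6895 FPKM, with CT4 highest. The list's median CT4 difference of 0.29 turned to -0.07 after rescaling, when the median of all genes was -0.39. Ywhaz, an adaptor protein, had 80.8, 89.8, 86.0, 92.3 and 91.1 FPKM and Pgk1, of glycolysis, 64.0, 61.1, 49.9, 59.4 and 59.9 FPKM, and these had the smallest CVs of the list. Rplp0 had 783, 711, 707, 1739 and 703 FPKM, so CT4 was more than 2-fold above the others. Gapdh, a glycolytic gene that tissues make in abundance, was listed at 2.26, 1.84, 2.05, 0.271 and 2.74 FPKM. Many processed copies of Gapdh lie in the genome, and no source used here says how reads with several matches were counted, so this level is not read as expression.

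The levels of 35 transcription factors and 33 cytokines, lists drawn up after the levels had been seen, fill in the picture. Spi1, which encodes PU.1 of myeloid and B cells, had 42.7, 41.7, 37.5, 20.1 and 41.1 FPKM and Irf8 51.3, 52.4, 57.2, 27.4 and 50.6 FPKM. Spib, of B cells, had 84.2, 99.4, 127, 49.1 and 107 FPKM. Cebpb, of macrophages and granulocytes, had 57.7, 57.2, 33.3, 1.19 and 35.0 FPKM. For Cebpb CT1 and CT2 were alike, CT2 was highest after rescaling, and CT4 was lowest. Cebpe, of late granulocytes, had 22.4, 11.98, 3.81, 1.38 and 9.77 FPKM, with CT1 highest and CT4 lowest, as in the neutrophil sum. Gata3, of T cells, had 2.11, 2.01, 2.09, 1.80 and 2.06 FPKM with little spread. Among cytokines Ltb, lymphotoxin beta, was the highest by far, at 303, 211, 245, 70.5 and 241 FPKM. It signals to stromal cells that make the chemokines named above. Il1b had 41.2, 71.2, 43.4, 9.005 and 40.5 FPKM, Tgfb1 44.7, 48.4, 46.8, 34.4 and 49.97 and Il18 35.7, 24.5, 28.1, 29.5 and 25.7. Tnf had 8.28, 9.29, 7.19, 1.28 and 1.80 FPKM, low in CT4 and CT5. Effector cytokines were near or at the limit: Il4 had 1.22, 0.897, 1.298, 2.25 and 1.23 FPKM, Ifng 0.144, 0.425, 0.659, 0.173 and 0.506 FPKM, Il13 was at most 0.109 and Il17a at most 0.106, and Il5, Ifnb1 and Epo had no fragment in any library.

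Markers of other organs were mostly near 0. Of 59 matched genes of pancreas, fat, liver, skeletal muscle, thymocytes, neurons and stomach, 12 had a mean of at least 1 FPKM and 15 had no fragment in any library. Pancreas lies beside the spleen, and of its 17 genes a single one, Cela1, had a mean above 1, at 12.04, 8.22, 9.38, 10.6 and 10.1 FPKM, with Cpa1, Cela2a, Try4, Amy2a1, Amy2a2, Ins1, Ins2 and Sst at 0 throughout. Fat genes split the libraries. Cfd, adipsin, had 30.3, 28.7, 0, 5.43 and 1.64 FPKM, Adipoq, adiponectin, 3.202, 3.77, 0, 0.378 and 0.237 FPKM and Cidec, of lipid droplets, 2.95, 4.68, 0, 0 and 0.177 FPKM. CT1 and CT2 were high, CT4 intermediate for Cfd, and CT3 at 0 for all 3. The fat list summed to 57.5, 59.6, 10.4, 30.7 and 16.0 FPKM, of which Lpl, which macrophages make too, was 11.1 ± 3.18. Cyp2e1, of liver and fat, had 3.52, 3.91, 0, 2.66 and 0.0911 FPKM, also highest in CT1 and CT2. Alb, albumin, stayed at or below 0.0972 FPKM. Serpina1a, a protease inhibitor, had 4.02 ± 1.02 FPKM. Of the muscle genes Mylpf, a fast myosin light chain, had 10.4 ± 4.10 and Tnnt3, a troponin, 1.11 ± 0.591 FPKM. Of the thymocyte genes Rag1 and Dntt stayed under 1 FPKM and Cd1d1 is also in the marginal-zone list. No neuron or stomach gene reached a mean of 1. The part of attached fat in other genes' levels was not tested.

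Genes of sex and strain did not go against the labels. Xist, the RNA of the inactive X, had 86.9, 82.8, 80.7, 146 and 79.6 FPKM, and the Y-linked Kdm5d, Eif2s3y, Uty and Ddx3y had no fragment in any library. Klra8, an NK receptor gene that BALB/c lacks, had 0, 0, 0.0483, 0 and 0 FPKM. Tlx1 and Spic, named above, were present in every library under the label of spleen.

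The spread between libraries was set by CT4 first and CT1 second. Over the 14366 genes with a mean of at least 1 FPKM the median CV was 24.4%. It was 12.8% without CT4, 8.41% without CT1 and CT4, and 23.8 to 26.5% when another library was left out. Genes with a CV under 10% numbered 1597 of 14366 with all libraries and 5188 without CT4, and those over 50% numbered 1988 and 809. Protein-coding genes had a median CV of 21.3%, or 11.1% without CT4, against 4.12% that counting alone would give. Long non-coding RNAs had 40.2 and 25.6%, and processed pseudogenes 41.0 and 27.9%, where counting alone would give 15.1 and 16.7%. By level, the median CV was 32.8% at a mean of 1 to 3 FPKM, 22.8% at 30 to 100 and 41.3% at 1000 and over, so the most abundant genes were not the steadiest. Counting alone would give 11.3%, 2.22% and 0.591% at these levels. CT4 was the highest of the 5 for 38.8% of genes and the lowest for 40.4%. CT1 was highest for 26.3% and lowest for 23.6%, and each of CT2, CT3 and CT5 was highest or lowest for 22.2 to 24.95%. Across genes Pearson's r between log2(FPKM + 1) values was 0.848 to 0.869 for the 4 pairs with CT4 and 0.962 to 0.981 for the other 6. Genes share their library and are no replicates, so these r are descriptions.

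**Figure D4:**
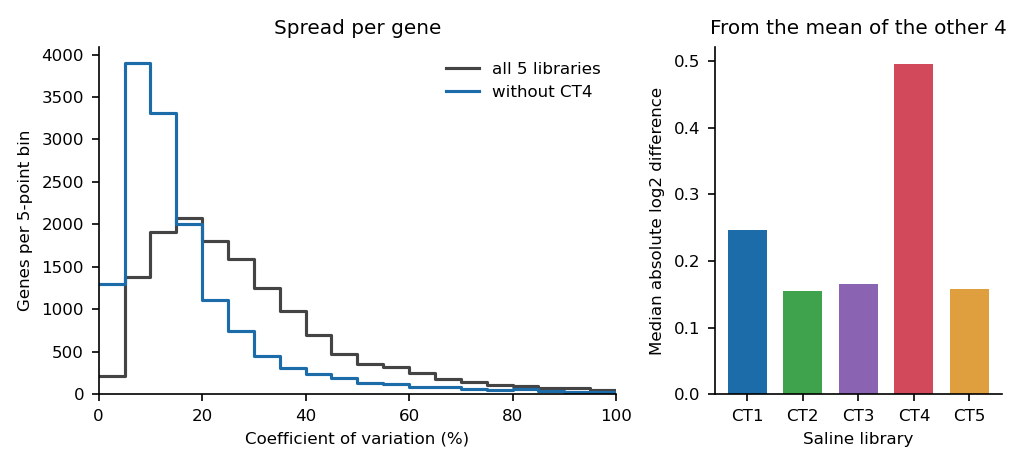
Left, number of genes (of 14366 with a mean FPKM of at least 1) per 5-point bin of the coefficient of variation (%), with all 5 saline libraries and without CT4. Right, median absolute log2 difference of each library from the mean of the other 4, with bars of 0.247, 0.156, 0.165, 0.497 and 0.158 from CT1 to CT5.

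Among protein-coding genes with a mean of at least 10 FPKM the 10 smallest CVs belonged to genes of medium level. Dnajc14, a co-chaperone, had 14.1, 14.1, 14.2, 13.9 and 14.0 FPKM, a CV of 0.819%. Nup62, of the nuclear pore, had 28.5, 28.0, 28.2, 27.3 and 28.0 FPKM and Ociad1 21.7, 21.5, 21.3, 21.3 and 22.3 FPKM. Brox, Prpf4b, Dync1li2, Socs4, Golga2, Nol9 and Cpsf6 completed the 10, with CVs of 1.92 to 2.71%. The 10 with the widest CV mixed the patterns above: Hspa1b and Ccn1 for CT5, Cfd for CT1 and CT2, Ear1 for the eosinophil order, and mt-Nd5, mt-Co1, Cenpf, Rps12, Mki67 and Prxl2a for CT4. Without CT4 the 10 widest were Hspa1b, Ccn1, Cfd, Hba-a2, Wfdc21, Prtn3, Ear1, Sumo2, Ctsg and Camp. Prtn3, Ctsg and Camp are neutrophil granule genes. Wfdc21 had 153, 62.0, 28.4, 49.9 and 37.0 FPKM with CT1 highest. Sumo2, a small modifier protein, had 36.3, 8.25, 50.4, 7.91 and 9.63 FPKM, high in CT1 and CT3 and low in the other 3.

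The genes furthest from the others in CT4 were named by the same rule. Higher were mt-Nd5, Cenpf, mt-Co1, Rps12, Mki67, Prxl2a, Bpgm, Isg20, Ube2l6 and mt-Nd2, with CT4 differences from 2.85 to 2.29. Bpgm, which makes the bisphosphoglycerate that tunes haemoglobin, had 99.8, 93.3, 123, 494 and 79.5 FPKM, and Ube2l6, a conjugating enzyme for Isg15 that erythroid cells also make, 212, 146, 196, 839 and 141 FPKM. Lower were Prg2, Cebpb, Atp5k, Scand1, Lsm5, Clec2d, Ddit4, Lst1, Junb and Map11, with differences from -5.21 to -3.16. Atp5k, a subunit of ATP synthase encoded in the nucleus, had 112, 65.1, 71.7, 4.12 and 67.4 FPKM, opposite to the mitochondrially encoded genes. Clec2d, a ligand of NK receptors, had 102, 74.8, 84.2, 5.17 and 82.9 FPKM.

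CT4 differed along base composition and length. Genes were put into 10 equal classes by the GC content of their longest transcript. The median CT4 difference went from 0.35 in the class with the lowest GC to -0.83 in the class with the highest. In the other libraries the class medians stayed between -0.16 and 0.25. Each of those libraries is set against a mean that includes CT4, so these medians are not free of CT4. By 10 classes of gene length it was lowest, -0.27, in the third class and highest, 0.34, in the class of the longest genes. CT1 ran in the opposite direction over the same classes, from 0.25 to -0.23. With the median of its GC class taken off each gene, 1988 of the 13856 genes with a GC value were beyond 1 log2 unit in CT4, against 2650 before. With length taken off in the same way the count was 2756 of 14366, against 2894. The erythroid median CT4 difference was then 1.13 with GC and 1.03 with length, the immediate-early median -1.29 and -1.26, and the neutrophil median -0.82 and -0.66. The stromal median of -0.36 became -0.02 with GC, and the endothelial one of -0.26 became 0.08, so these medians came close to 0.

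**Figure D5:**
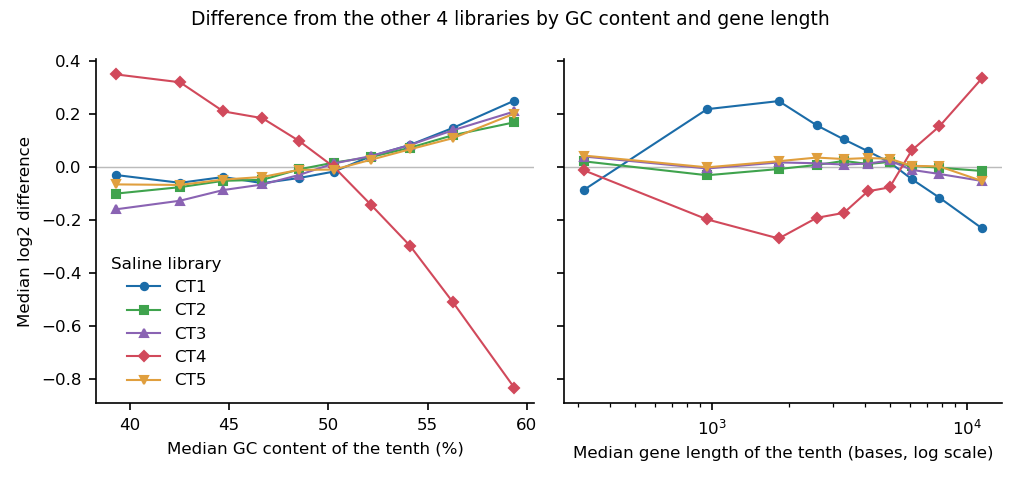
Median log2 difference of each saline library from the mean of the other 4, over 10 equal classes of genes ordered by GC content (left, %) and by gene length (right, bases, log scale). For the libraries other than CT4 that mean includes CT4. The CT4 line falls from 0.35 to -0.83 across GC. Across length it is lowest at -0.27 in the third class and ends at 0.34, and the CT1 line runs from 0.25 in that class to -0.23.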

How the data were processed

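RNA was measured in spleens of the whole series, and the 5 saline columns of the gene table were used, matched to samples by treatment label, with 0 columns left unmatched. The values are FPKM per gene as deposited by the authors. Per the submitters' processing notes, which give no roles, the tools included HISAT2 2.0.5, featureCounts 1.5.0-p3 and StringTie 1.3.3b. The genome build, the strand of the counting and the treatment of reads with several matches are not given in the sources used here, and 1494 of 52083 gene IDs shared with GENCODE vM21 had the same coordinates (2.87%), so table coordinates are given as the file has them.

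FPKM times gene length was a whole multiple of 1 step per library for 100% of values, within 0.05 of a fragment, which gave 14540369 to 16698715 fragments per library and shares of fragments. The Wilson 95% interval of a share is at most 0.0130 points on each side and, like the limit of 3 fragments for a gene at 0, covers counting error only. Spread was described over 14366 genes with a mean FPKM of at least 1, as the CV of FPKM, with a pseudocount of 1 for log2 differences. No groups were compared and no p-value was computed, and a gap rule (Dixon's critical value for 5) marked values with a library far from the others. Gene symbols were matched exactly: 512 of 521 distinct symbols in 42 lists matched, and Folr4, Tcrg-C1, Tcrg-C2, Tcrg-C4, Ahsp, H2-L, Ighg2a, Gif and Muc6 did not.

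The genes and lists were chosen with earlier results of these data known. Named genes are the 30 highest by mean, up to 5 of each list and those at 0 in all libraries, the top 3 of each biotype with at least 0.1% of fragments, and, among 4841 named protein-coding genes with a mean of at least 10, the 10 with the largest and smallest CV, the largest CV without CT4 and the largest CT4 differences in each direction. Other list members are named where their values are given. A few genes that the rule names are not reported here. Alternatives tried were each library left out, CT1 and CT4 left out together, other scalings, pseudocounts and thresholds, shares of summed FPKM, and centring by GC content or length. GC content is that of the longest GENCODE vM21 transcript, and promoters are RefSeq, GRCm38.p6. Scripts used Python 3.11.15 with pandas 2.3.3, numpy 2.4.6, scipy 1.17.1, matplotlib 3.10.9 and biopython 1.88 and were tested on simulated data.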

Additional observations from a re-analysis of the deposited data

Results flagged for a closer look

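Of 224 values checked, 57 had a library whose gap to the nearest of the other 4 was more than 0.71 of the whole range. Chance gives such a gap in about 1 in 20 groups of 5, but the number is not read against that share, since many of these values share genes and some genes were named for their spread or for their CT4 difference. CT4 was that library in most of them, as the highest for 30 and the lowest for 19.

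CT4 was high for the share of fragments on the mitochondrial chromosome (6.62%), on its protein-coding genes (5.42%) and on its ribosomal RNAs (1.19%). It was low for protein-coding genes (93.8%) and polymorphic pseudogenes (0.0959%). Its library size over fragments was 0.802, it had 20681 genes above 0, and 611 genes held 50% of its fragments. Its ratio of Igkc to the lambda constant regions was 13.1. By summed FPKM it was high for the progenitor (88.2), iron (2618), proliferation (1969) and reference (11610) lists, though not for iron after rescaling. Of the progenitor sum 62.1 FPKM was Gfi1b. In that list 1 of 8 genes was beyond 1 log2 unit higher in CT4, and the median CT4 difference was -0.05. CT4 was low for the regulatory T-cell (15.3), conventional dendritic (88.6), marginal-zone macrophage (119) and glucocorticoid (131) lists.

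Among single genes CT4 was high for the mitochondrial mt-Co1 (23941 FPKM), mt-Nd5 (3974 FPKM), mt-Cytb (5194 FPKM), mt-Rnr1 (6054 FPKM) and mt-Rnr2 (5716 FPKM). It was high for the red-cell and blood-forming genes Alas2 (1730.0 FPKM), Bpgm (494 FPKM), Ube2l6 (839 FPKM) and Gfi1b (62.1 FPKM) and for the unnamed chromosome 7 entry (3847 FPKM). Translation genes on the same side were Eef1a1 (5715 FPKM), Rps12 (1623 FPKM), Rplp0 (1739 FPKM), Tpt1 (3097 FPKM) and the pseudogene entry Gm15772 (4927 FPKM). The division genes were Mki67 (690 FPKM), Top2a (116 FPKM) and Cenpf (54.5 FPKM), and the others were B2m (1898 FPKM), Fth1 (1094 FPKM), Rsad2 (195 FPKM) and Xist (146 FPKM). CT4 was low for Bcl6 (5.77 FPKM), Cd1d1 (3.89 FPKM), H2-D1 (213 FPKM), Ccl5 (19.0 FPKM), Cd209d (0 FPKM), Ddit4 (13.5 FPKM), Tsc22d3 (14.7 FPKM), Spi1 (20.1 FPKM), Irf8 (27.4 FPKM) and Clec2d (5.17 FPKM).

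CT1 was high for the gamma-delta T-cell sum (22.9 FPKM), Camp (660.3 FPKM), Ly6g (36.7 FPKM) and Wfdc21 (153 FPKM). CT5 was high for Hspa1b (97.9 FPKM), Hspa1a (39.4 FPKM) and Ccn1 (93.3 FPKM). CT3 was the single library with any fragment on Klra8 (0.0483 FPKM), which is under the limit of 3 fragments.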

How the results depend on the processing

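No paired analysis was possible because the saline libraries are a single group and no groups were compared. The number of genes at 1000 FPKM or more was 39, and 100 after rescaling to equal summed FPKM. The protein-coding share was 94.6% of fragments and 83.3% of summed FPKM. Genes at or above the threshold in every library numbered 12104 at 1 FPKM and 6808 at 5. The median CV was 24.4%, 49.8% with no filter on low values, 8.41% without CT1 and CT4 (chosen after seeing the data), and 12.8 to 26.5% when 1 library was left out, the lowest without CT4. As an SD it was 0.292 of log2(FPKM + 1) and 0.348 of log2(FPKM + 0.1), which is another unit. Genes beyond 1 log2 unit in CT4 numbered 2894, and 1120 at a mean of at least 10, where fewer genes were counted. With a pseudocount of 0.1 the number was 3989, after rescaling 4330 and after median-of-ratios scaling 2913. The share of them that was higher in CT4 was 38.7%, and 15.3% after rescaling.

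Leaving out 1 library moved the share of the 10 highest genes between 7.25 and 8.50%, the globin share between 3.89 and 4.35%, the mitochondrial share between 1.56 and 2.86%, genes at 1000 FPKM or more between 32 and 43, the neutrophil sum between 2601 and 4356 FPKM and the eosinophil sum between 140.1 and 213.5 FPKM. The low mitochondrial share is the one without CT4, and the low neutrophil sum the one without CT1. Shares of summed FPKM in place of fragments were 5.80% for processed pseudogenes, 3.15% for antibody constant genes, 1.94% for antibody variable genes, 0.795% for entries without a symbol, 0.589% for transcribed processed pseudogenes, 0.279% for polymorphic pseudogenes, 0.265% for rRNA and 0.195% for TEC. All other alternatives, 89 for the main results and 222 for single lists and classes, stayed within 1 SD over the libraries or within 1.5 times the count. For shares and sums much of this was fixed in advance. Leaving out 1 library or taking the median cannot move a mean by 1 SD, and rescaling leaves a share of fragments as it was. These numbers are therefore not read as a sign of stability. The CT4 differences of the lists are not among the 89 and 222. Of lists with at least 5 genes at a mean of 1 or more, the median CT4 difference turned negative on rescaling for the reference (0.29 to -0.07), smooth-muscle (0.18 to -0.17) and heat-shock lists (0.08 to -0.33). The median of all genes moved from -0.01 to -0.39, so these lists stayed above it. The CT4 sum over the mean of the others went from 1.31 to 0.980 for the iron list, 1.19 to 0.890 for plasma cells, 1.34 to 0.998 for antibody constant regions, 1.03 to 0.771 for class II and 1.03 to 0.764 for smooth muscle.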
